A study of Mus musculus with 6 samples.

Results

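The 9 genes described here encode proteins with which the vessel wall controls clotting and clot removal: Vwf, Thbd, Procr, Tfpi, Plat, Plau, Plaur, F3 and F8. They were taken by symbol from a count table of 24421 genes, and all 9 symbols were found. The RNA came from brain-derived mouse endothelial cells, which form the inner lining of vessels. They had been kept for 6 days on a vascular niche and were then sorted by flow cytometry. In the cells labelled knockout, a Fli-1 deletion had been induced before those 6 days. Of 6 libraries, 3 are labelled Fli-1 knockout and 3 wild-type, numbered 1 to 3 in each group. The treatment text of the libraries in both groups names 4-OHT (4-hydroxytamoxifen, a drug that switches on tamoxifen-dependent recombinases). The recombinase, its driver, and the strain and age of the mice were not given in the sources used here. Whether libraries sharing a label derive from different dishes or mice is not stated either, so the p-values measure the spread between these libraries only, which may be technical.

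Endothelium keeps blood fluid in health and permits clotting at a wound. Tissue factor starts the extrinsic pathway when it meets plasma factor VII, tissue factor pathway inhibitor stops that step, and thrombomodulin with the endothelial protein C receptor turns thrombin towards an anticoagulant role. Von Willebrand factor, stored in Weibel-Palade bodies, tethers platelets and carries factor VIII in plasma. Fibrin is later dissolved by plasmin, which the tissue-type and urokinase-type plasminogen activators generate from plasminogen.

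Total counts ranged from 17550185 to 21385951 per library, and the 9 genes took between 0.183% and 0.219% of them. A level is given as CPM, the read count scaled for library size with TMM factors, and each difference is the knockout label over the wild-type label. Knockout and wild-type libraries are named by their labels throughout, because Fli1 itself went against them. It stood at 76.8, 111 and 77.4 CPM in knockout libraries 1 to 3 and at 45.3, 59.6 and 45.8 CPM in wild-type libraries 1 to 3, so every library labelled knockout was the higher one. The paired test described below gave a log2 fold change of 0.81 for Fli1 (adjusted p = 1.25e-15 by edgeR), and the comparison without pairs gave 0.81, which passed with DESeq2 (adjusted p = 0.00695) and not with edgeR (adjusted p = 0.878). Reads from exons left after a deletion still count towards the gene, so this level does not test the deletion. Whether the labels were exchanged was not tested either. Every direction below follows the labels, and would turn if they were exchanged. Endothelial markers were abundant in every library: Cdh5, encoding VE-cadherin, lay between 4432 and 5152 CPM, and 10 such markers summed to between 12934 and 15543 CPM. Fibroblast markers differed between replicate numbers: the sum of 8 markers was 112, 898 and 402 CPM in knockout libraries 1 to 3 and 153, 1255 and 437 CPM in wild-type libraries 1 to 3. Platelet and megakaryocyte markers summed to at most 6.89 CPM, and the platelet genes Gp6 and Treml1 had 0 reads.

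Upstream sequence from RefSeq (GRCm38.p6, 250 bases before to 50 after a start) was matched by symbol for 5 of the 9 genes, Procr, Tfpi, Plaur, F3 and F8. Of these 5, 3 held the letters TGACTCA on either strand (TGAGTCA on the other), a sequence bound by the AP-1 family of transcription factors, which was found in 5.2% of 32851 such windows. The looser TGANTCA, which takes in that sequence, was found in the same 3 genes and in 7.8% of windows. The windows of Tfpi and F8 held neither. The F8 window, chrX:75379992-75380291 on the minus strand, lies inside the F8 locus given below, which ends at 75382615. Sequence upstream of that outer end was not searched. The RefSeq start of Procr also lay downstream of the locus start given below. Both motifs were chosen after the sequences were seen, and binding was not measured. The stretches around these matches are shown because a protein C receptor, a plasminogen activator receptor and the initiator of clotting share the letters. Capitals mark the matches to TGANTCA, and all 3 stretches lie on the plus strand, at chr2:155751046-155751086 for Procr, chr7:24462397-24462437 for Plaur and chr3:121723374-121723425 for F3, which held 2 matches. The first of these, TGAATCA, matches the looser letters alone.
Procr: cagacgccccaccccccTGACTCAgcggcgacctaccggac
Plaur: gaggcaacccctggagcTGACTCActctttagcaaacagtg
F3: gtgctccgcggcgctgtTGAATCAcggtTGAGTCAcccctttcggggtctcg
The first match lay 154 bases before the RefSeq start for Procr, 69 for Plaur and 146 for F3, whose other match lay 135 bases before it. GGAA, the core of sequences bound by ETS factors such as Fli1, was present on at least 1 strand in all 6 windows of the 5 genes, and in 96.0% of all windows, so its presence did not set these genes apart. The longer ETS sequence CGGAAG was found in the Procr window alone among the 5 genes, against 16.9% of all windows.

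Between the groups, 8 of the 9 genes did not pass any comparison made on all 6 libraries at the main settings, and F8 passed in 1 of the 2. The comparison of the groups (edgeR's quasi-likelihood test, Benjamini-Hochberg adjustment, threshold 0.05) called 0 of the 9 genes. It called 1 of 12753 genes tested, or 0.00784%, and DESeq2 called 11 genes higher and 7 lower, with 0 of the 9 among them. An unadjusted p under 0.05 in edgeR's comparison was found for 0 of the 9 genes and for 611 of all genes tested (4.79%). A second test took the shared replicate number as a block and is called the paired test below. It called 0 of the 9 genes higher and 1 lower, F8, against 4.81% of all genes tested called higher and 4.01% called lower (613 and 511 genes). Scaling by library size alone turned that split over all genes to 471 higher and 734 lower, with the same count of 1 of the 9 genes lower. The 3 libraries of each group overlapped for all 9 genes, while the groups did not overlap for 10.2% of genes tested. The median log2 fold change of the 9 genes in the paired test was -0.027, beside -0.003 over all genes tested, and the median size regardless of direction was 0.086 beside 0.08. For 4 of the 9 genes (44.4%), and for 40.7% of all genes tested, the 3 same-numbered pairs moved in a single direction.

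**Figure D1:**
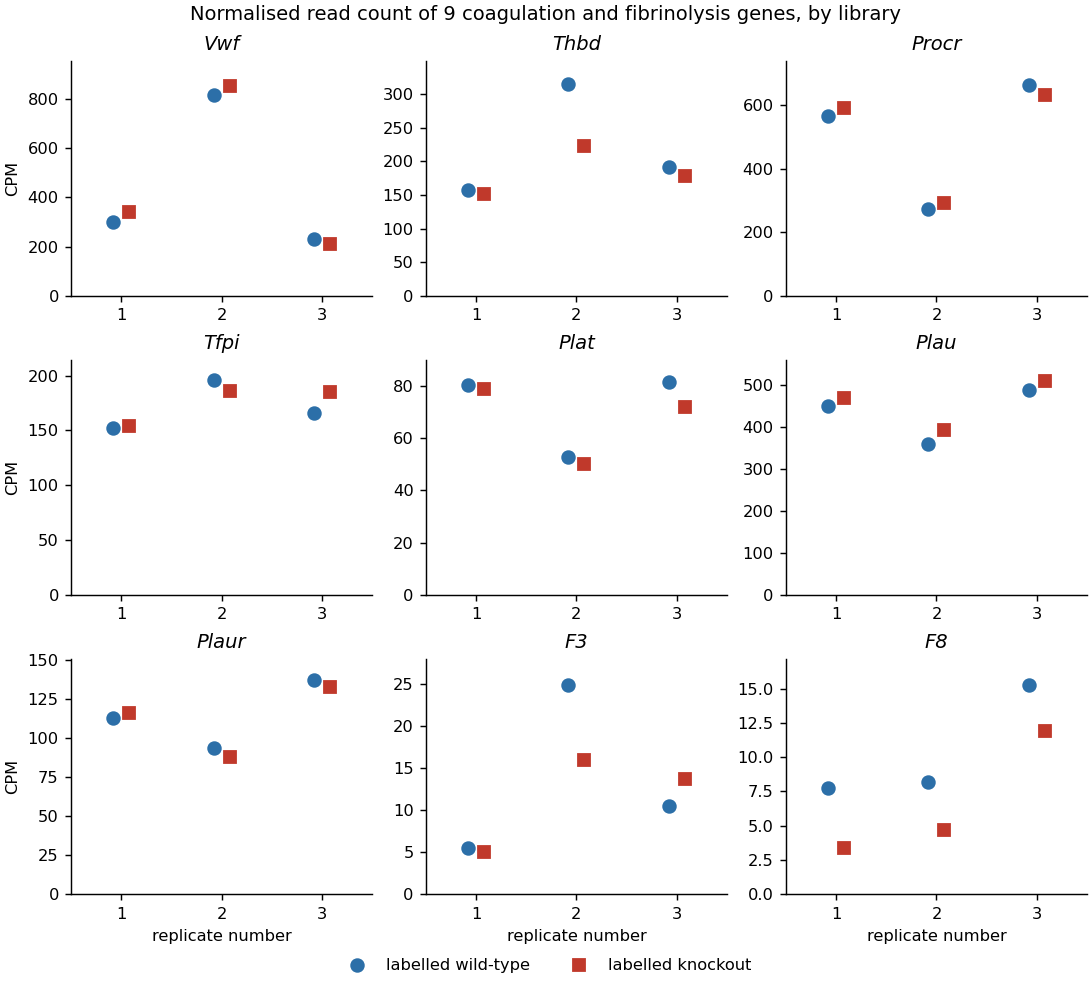
Normalised read count (CPM, axis from 0) of each of the 9 genes against the replicate number, with 1 point per library, circles for libraries labelled wild-type and squares for libraries labelled knockout. Points with the same number lie close together for most genes, Vwf reaches 850.4 and 815 CPM in number 2, and F8 is lower in the square than in the circle at each number.

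F8 encodes coagulation factor VIII, the cofactor that speeds the activation of factor X and whose lack causes haemophilia A (ENSMUSG00000031196, GRCm38 chrX:75172715-75382615, minus strand, up to 26 exons). Its level was 3.33, 4.65 and 11.9 CPM in knockout libraries 1 to 3 and 7.73, 8.17 and 15.3 CPM in wild-type libraries 1 to 3. It was the lowest of the 9 genes per exon length, resting on 70, 87 and 206 reads in knockout libraries 1 to 3 and 162, 172 and 299 in wild-type libraries 1 to 3. Each library labelled knockout lay below its same-numbered counterpart, but knockout library 3 lay above wild-type libraries 1 and 2, so the groups overlapped.

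Within the pairs the log2 ratios of F8 were -1.22, -0.81 and -0.35. The paired test gave -0.71 ± 0.13 (SE), with a 95% interval from -0.97 to -0.45 and an adjusted p of 0.000172 by edgeR. Without the block the log2 fold change was -0.65, the interval ran from -2.02 to 0.72, and the adjusted p was 0.996. Over the alternatives of the paired test the F8 change ranged from -1 to -0.53 with adjusted p values from 5.13e-08 to 0.0117, and it passed in all 8 of them at their own thresholds. The paired interval of F8 rests on a spread pooled across genes, with 2 residual degrees of freedom per gene. It also rests on a pairing read from the data rather than stated in the labels. Both limits hold for every SE and interval of edgeR's paired test given below. The gene Fundc2 overlaps the F8 locus on the other strand and shares 0 bases of exon with it.

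The 3 genes most like F8 over the 6 libraries, by the root-mean-square distance between log2 CPM values centred on their means, were Ptgs2 at 0.31, Crct1 at 0.34 and Ch25h at 0.48, of 8986 genes averaging at least 10 CPM. Ptgs2, which encodes the inducible cyclooxygenase, stood at 230, 215 and 413 CPM in knockout libraries 1 to 3 and at 407, 373 and 605 CPM in wild-type libraries 1 to 3. As with F8, library 3 was the highest of each group and each library labelled knockout lay below its same-numbered counterpart. That likeness is what the gene was chosen for, so it is no separate result.

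Vwf encodes the platelet-tethering protein von Willebrand factor, a classical endothelial marker (ENSMUSG00000001930, GRCm38 chr6:125546774-125686679, plus strand, up to 52 exons). It was measured at 340.5, 850.4 and 209 CPM in knockout libraries 1 to 3 and at 299.7, 815 and 231 CPM in wild-type libraries 1 to 3. The level in number 2 was 3.79-fold that in number 3 (geometric means of 832 and 220 CPM), whereas same-numbered libraries stayed close, at log2 ratios of 0.18, 0.06 and -0.15. The groups averaged 467 ± 339 and 449 ± 319 CPM (SD, n = 3). The paired log2 fold change was 0.04, with an interval from -0.06 to 0.13 and an adjusted p of 0.728. That interval rests on the pooled spread, and the pair ratios of 0.18 and -0.15 lay outside it. The paired SE was 0.048 by edgeR and 0.097 by DESeq2. Without the block the interval ran from -1.85 to 1.96, so that comparison could not tell a large rise from a large fall.

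Closest to Vwf in pattern were Lrrc55, Inhbb and Sema6a, at distances of 0.13, 0.16 and 0.20 among 8985 genes compared. Inhbb, for example, stood at 12.4, 34.8 and 9.33 CPM in knockout libraries 1 to 3 and at 10.2, 37.0 and 10.1 CPM in wild-type libraries 1 to 3. All 3 genes were highest in the libraries of number 2, which follows from choosing them by their likeness to Vwf. Selp encodes P-selectin, an adhesion receptor that is stored with von Willebrand factor in Weibel-Palade bodies. It was chosen after its values were seen, and was also highest in number 2, at 97.4 and 90.9 CPM against 4.92 to 33.2 CPM elsewhere. Other genes of the Weibel-Palade list described below went either way. Cd63 was highest in number 2, at 240 and 246 CPM against 198 to 223 CPM elsewhere. Angpt2 was lowest there, at 4127 and 4006 CPM against 4376 to 5007 CPM, and so was Rab27a.

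**Figure D2:**
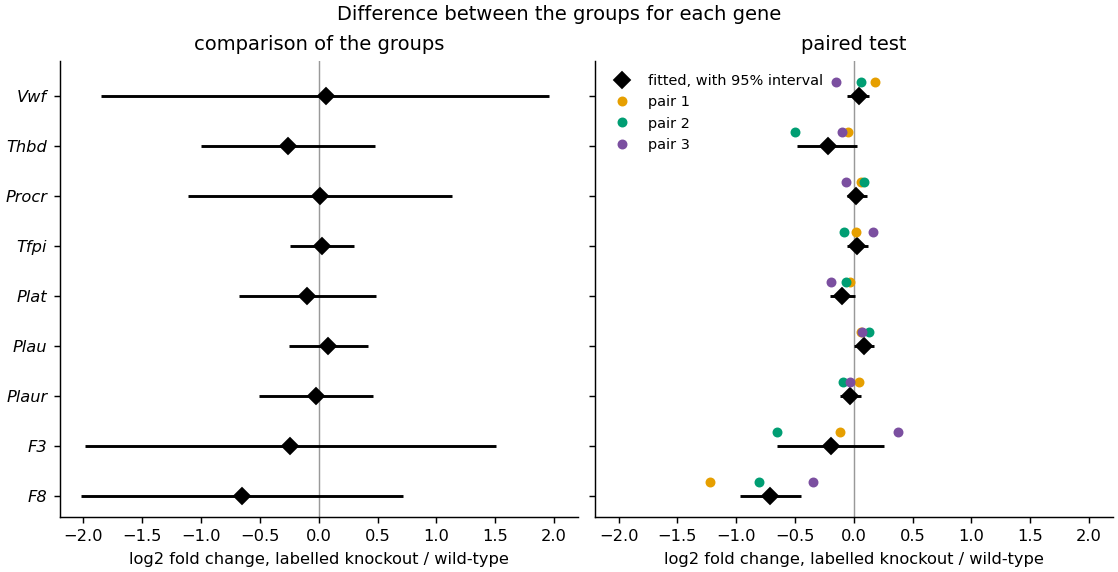
Log2 fold change of each gene, libraries labelled knockout over libraries labelled wild-type, without the block (left) and in the paired test (right). Diamonds are fitted values, bars are 95% intervals and coloured points are the ratios within pairs 1 to 3. The interval lies wholly below 0 for F8 in the paired test, and that of Vwf narrows from -1.85 to 1.96 on the left to -0.06 to 0.13 on the right. Paired intervals rest on a spread pooled across genes, and the Vwf points of pairs 1 and 3 lie outside its interval.

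Thbd encodes thrombomodulin, the thrombin receptor that redirects thrombin to activate protein C. The gene has a single exon (ENSMUSG00000074743, GRCm38 chr2:148404466-148408188, minus strand). Its level was 152, 223 and 178 CPM in knockout libraries 1 to 3 and 157, 315 and 191 CPM in wild-type libraries 1 to 3. Every library labelled knockout was lower than its counterpart, by 0.05, 0.50 and 0.10 on the log2 scale, and most of the difference sat in pair 2.

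In the paired test the log2 fold change of Thbd was -0.22 ± 0.098 (SE), with an interval from -0.48 to 0.03 and an adjusted p of 0.304 by edgeR. Its call depended on the settings. It passed at -0.22 when genes with low counts were not filtered out (adjusted p = 6.49e-05), at -0.31 without pair 1 (adjusted p = 2.88e-05) and at -0.28 without pair 3 (adjusted p = 1.01e-05). Over all 8 alternatives it ranged from -0.31 to -0.08, with adjusted p values up to 0.747.

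Procr encodes the endothelial protein C receptor, which presents protein C to the thrombin-thrombomodulin complex (ENSMUSG00000027611, GRCm38 chr2:155751117-155755471, plus strand). Its normalised count was 589.9, 291 and 631 CPM in knockout libraries 1 to 3, and 565, 274 and 664 CPM in wild-type libraries 1 to 3. Both number 2 libraries were low and all others at least 565 CPM, the reverse of the Vwf order. The group means were 504 ± 186 and 501 ± 203 CPM (SD, n = 3), and the paired log2 fold change was 0.02 with an interval from -0.06 to 0.11. The sign turned to -0.01 without pair 2.

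Tfpi encodes tissue factor pathway inhibitor, which blocks factor Xa and the tissue factor-factor VIIa complex (ENSMUSG00000027082, GRCm38 chr2:84432855-84476775, minus strand). It varied least of the 9 genes between replicate numbers, 1.25-fold from lowest to highest. The libraries labelled knockout had 154, 186 and 185 CPM and those labelled wild-type 152, 196 and 166 CPM, in the order 1 to 3. The paired log2 fold change was 0.03 with an interval from -0.06 to 0.12, and it was -0.03 without pair 3. Counts per gene do not separate the alpha and beta forms of the protein, which come from different splice variants.

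F3 encodes tissue factor, the membrane receptor that starts clotting, which fibroblasts and pericytes around vessels are known to carry and quiescent endothelium carries little of (ENSMUSG00000028128, GRCm38 chr3:121723537-121735048, plus strand). It was low, at 5.04, 15.9 and 13.7 CPM in knockout libraries 1 to 3 and 5.49, 24.9 and 10.5 CPM in wild-type libraries 1 to 3. Both number 1 libraries were lowest and both number 2 libraries highest, a 3.78-fold span. The summed fibroblast markers had the same order over the numbers, and most of that sum came from Col1a1, Col1a2 and Col3a1. Of the less abundant markers, Dcn and Fbln1 had that order too. Pdgfra was 3.05 and 2.53 CPM in number 1 and 3.30 and 1.73 CPM in number 3, and Postn was lowest in number 3. Pdgfrb, a pericyte marker, was 53.8 and 81.3 CPM in number 2 and 10.2 to 15.8 CPM in the others. Rgs5, another such marker, was 4.44 and 3.23 CPM in number 2 and 4.23 and 3.83 CPM in number 3. The part of such cells in the F3 counts was not tested, and in a bulk sample fewer cells of a type and less RNA per cell cannot be told apart.

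The pairs disagreed on the direction of F3, with log2 ratios of -0.12, -0.65 and 0.38. In the paired test the fold change was -0.19 ± 0.19 (SE), with an interval from -0.65 to 0.26 and an adjusted p of 0.658. It was -0.49 without pair 3, where it passed (adjusted p = 0.00171), and 0.18 without pair 2 (adjusted p = 0.678). Over the 8 paired alternatives the adjusted p ranged from 0.00171 to 0.998.

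Plau encodes urokinase, the plasminogen activator that acts at the cell surface (ENSMUSG00000021822, GRCm38 chr14:20836660-20843385, plus strand). Its level was 469.8, 393 and 511 CPM in knockout libraries 1 to 3, and 449.6, 359.8 and 488 CPM in wild-type libraries 1 to 3. It was above its counterpart in 3 of 3 pairs by 0.06, 0.13 and 0.07 on the log2 scale. The paired fold change was 0.09 ± 0.040 (SE), and the adjusted p of 0.21 missed the threshold.

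Plaur encodes the urokinase receptor, a membrane-anchored protein that holds urokinase at the cell surface (ENSMUSG00000046223, GRCm38 chr7:24462484-24475968, plus strand). It stood at 116, 87.7 and 133 CPM in knockout libraries 1 to 3 and at 113, 93.6 and 137 CPM in wild-type libraries 1 to 3. The paired fold change was -0.03, with an interval from -0.12 to 0.06 on the log2 scale.

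Plat encodes tissue-type plasminogen activator, the main activator of plasminogen on fibrin (ENSMUSG00000031538, GRCm38 chr8:22757727-22782844, plus strand). The libraries labelled knockout had 78.6, 50.2 and 71.7 CPM and those labelled wild-type 80.2, 52.7 and 81.6 CPM, in the order 1 to 3. Every library labelled knockout was below its counterpart, by 0.03, 0.07 and 0.19 on the log2 scale. The paired fold change was -0.10 ± 0.051 (SE), with an interval from -0.20 to 0.01 and an adjusted p of 0.286.

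Replicate number separated these genes more than the labels did. In 4 of the 9 genes, Vwf, Thbd, F3 and Tfpi, both libraries of number 2 lay above the other 4 libraries, as did 17% of genes tested. In another 4, Procr, Plat, Plaur and Plau, both lay below the other 4, as did 15.8% of genes tested. The number 2 libraries were 3.14-fold above the others for Vwf, 2.50-fold for F3, 1.57-fold for Thbd and 1.17-fold for Tfpi, and their level was 0.462, 0.660, 0.729 and 0.785 of the others for Procr, Plat, Plaur and Plau, as ratios of geometric means. The exception was F8, which was highest in number 3 with a 2.66-fold span.

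Summed endothelial markers differed little by number, at 13791 and 12934 CPM in number 2 and 14017 to 15543 CPM in the others. Summed fibroblast markers were highest in number 2. The sum of 10 mural markers, those of pericytes and smooth muscle, was 1855 and 2202 CPM there and 1412 to 1875 CPM elsewhere, and most of it came from Tagln and Acta2. Some single markers, chosen after their values were seen, differed more. Pdgfrb was 53.8 and 81.3 CPM in number 2 against 10.2 to 15.8 CPM elsewhere. Cspg4 was 51.8 and 81.8 against 4.49 to 14.8 CPM, and Notch3 37.4 and 50.3 against 1.51 to 8.31 CPM. Others did not share this: Tagln was lowest in number 2, at 982 and 1014 CPM against 1048 to 1444 CPM elsewhere. Rgs5 was 4.44 and 3.23 CPM in number 2 and 4.23 and 3.83 CPM in number 3. The labels do not say what the number stands for, and the part of these cells in the pattern was not tested.

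**Figure D3:**
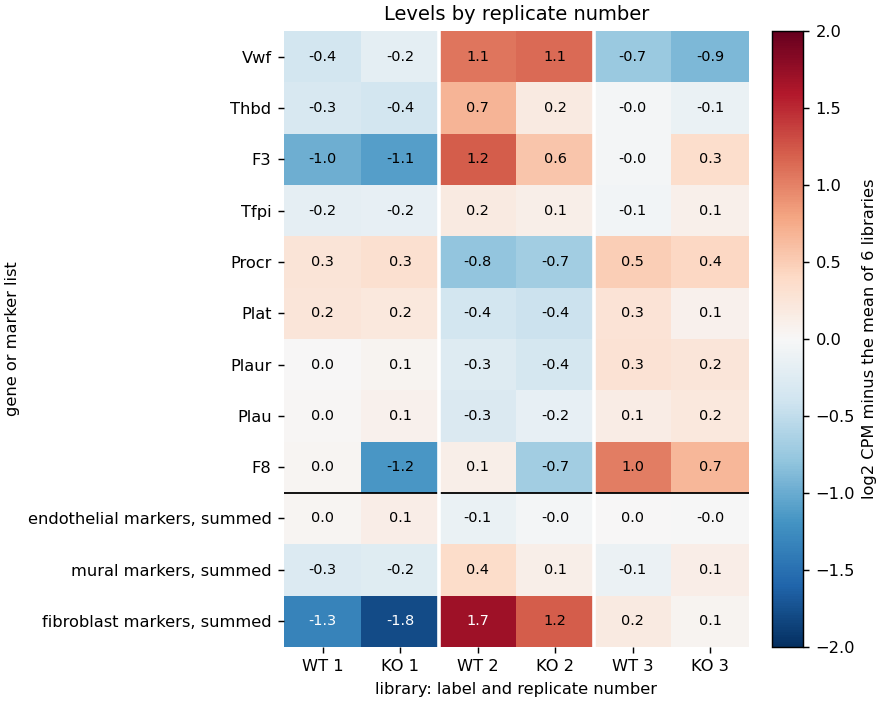
Log2 CPM of each gene, and of 3 summed marker lists below the line, minus its mean over the 6 libraries, in columns ordered by replicate number (WT, labelled wild-type; KO, labelled knockout). Red is above and blue below the mean; Vwf, Thbd, F3 and Tfpi are red and Procr, Plat, Plaur and Plau blue in both number 2 columns, and F8 is reddest in number 3.

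Levels between genes were compared as CPM per kilobase of exon, using exon lengths of GENCODE M21. That length joins the exons of all annotated transcripts of a gene. It was 16064 bases over 11 transcripts for Vwf and 6241 bases over 3 for Plat. Which transcripts were present was not measured, and where they are shorter than this length the level is understated. The order below depends on these lengths. Procr led the 9 genes with a median of 284 (135 to 327), followed by Plau with 194 (152 to 216). The lower group of levels was Thbd at 49.6 (40.9 to 84.5), Plaur at 43.7 (33.5 to 52.2), Tfpi at 32.1 (27.8 to 36.0), Vwf at 19.9 (13 to 52.9) and Plat at 12 (8.04 to 13.1). The lowest were F3 at 4.78 (2.00 to 9.85) and F8 at 0.803 (0.336 to 1.54).

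By mean level the order was Procr, Plau, Thbd, Plaur, Tfpi, Vwf, Plat, F3, F8. The ranges over the 6 libraries did not overlap between Plau and Thbd or between F3 and F8, and they overlapped for the other 6 neighbouring pairs. Procr was above Plau in 4 of 6 libraries and below it in both number 2 libraries, and Thbd was above Plaur in only 2 of 6. Vwf was above Plat in 6 of 6 libraries and Plat above F3 in 5 of 6.

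**Figure D4:**
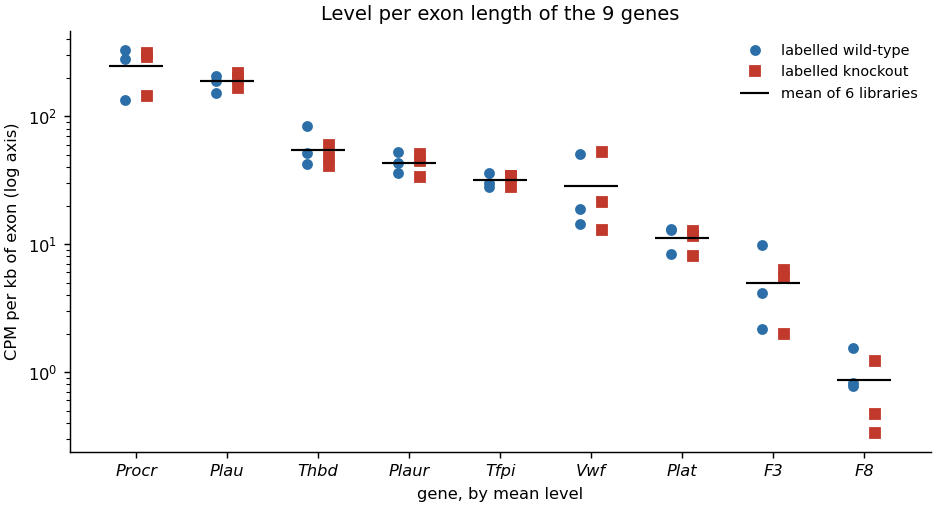
Level in CPM per kilobase of exon (log axis) of the 9 genes, ordered by mean, with circles for the 3 libraries labelled wild-type, squares for the 3 labelled knockout and a line at the mean of 6. Procr and Plau lie between 135 and 327, and F8 at or below 1.54.

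Ratios between partners were computed per exon length within each library, so their sizes depend on the joined exon lengths described above. Tfpi exceeded F3, the initiator it inhibits, in every library, by 14.1, 5.4 and 6.27-fold in knockout libraries 1 to 3 and 12.8, 3.65 and 7.30-fold in wild-type libraries 1 to 3. Urokinase exceeded tissue-type activator transcripts by 14.8 to 20.7-fold, and Plau exceeded its receptor gene Plaur by 3.95 to 4.96-fold. The ratio of Thbd to Procr was 0.418 and 0.626 in number 2 and between 0.141 and 0.157 elsewhere.

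No test of these ratios could reach 0.05 with 6 libraries. The mean log2 difference between the labels was 0.16 for Tfpi over F3, 0.18 for Plau over Plat, 0.12 for Plau over Plaur and -0.24 for Thbd over Procr. Exact two-sided permutation tests of the 6 libraries gave p values of 0.3 to 0.9 (0.6 to 0.9 adjusted over the 4 ratios), where the smallest reachable p is 0.1. Exact sign flips over the 3 pairs gave p = 0.25 for 3 ratios, the smallest they can give, and 0.75 for Tfpi over F3 (0.333 and 0.75 adjusted). The pairs shared a direction for Plau over Plat, at 0.09, 0.20 and 0.25, for Plau over Plaur, at 0.02, 0.22 and 0.10, and for Thbd over Procr, at -0.11, -0.58 and -0.03. The direction of Tfpi over F3 turned to -0.31 without wild-type library 2 and to -0.26 without knockout library 1, and that of Thbd over Procr to 0.43 and 0.04.

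Among other genes of these pathways, written as 5 lists of 55 genes, the paired test called 2 higher and 3 lower of 30 tested, and the comparison of the groups called 0. The share called in the paired test over all genes tested was 4.81% higher and 4.01% lower, and each list below is read beside these shares. The remaining 25 list genes did not pass. The groups overlapped for each of the 5 called genes. Among the other 25 tested list genes they did not overlap for Lman1, Ggcx and Pros1, as for 10.2% of all genes tested. The calls were 3 higher and 1 lower without pair 2, 1 and 2 without pair 3, 1 and 1 with DESeq2, and 1 and 4 with library size alone.

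Of 7 tested genes in the plasminogen list, 0 rose, 2 fell and 5 did not reach the threshold of the paired test, where 4.01% of all genes were called lower. The median of the list's log2 fold changes was 0.02, beside -0.003 over all genes tested. Lrp1, an endocytic receptor that clears protease-inhibitor complexes and is known as a gene of fibroblasts and smooth muscle, fell by 0.44 ± 0.057 (SE), with an adjusted p of 4.06e-06. Its levels were 23.2, 188 and 74.5 CPM in knockout libraries 1 to 3 and 37.4, 261 and 88.0 CPM in wild-type libraries 1 to 3. The Lrp1 pairs were at -0.69, -0.47 and -0.24 on the log2 scale. DESeq2's paired test gave a wider SE, at -0.46 ± 0.12 (adjusted p = 0.0102). Of 6 tested fibroblast markers, Col1a1 and Col3a1 also fell, by 0.33 and 0.24 (adjusted p = 0.00281 and 0.0211). Col1a2 was lower in 3 of 3 pairs without passing (-0.51, adjusted p = 0.306). Dcn rose by 0.51 (adjusted p = 0.0449), and Pdgfra and Fbln1 were higher in 3 of 3 pairs without passing. Of 9 tested mural markers, 3 fell and 0 rose: Cspg4 by 0.62 (adjusted p = 1.94e-05), Notch3 by 0.51 (adjusted p = 0.000278) and Pdgfrb by 0.44 (adjusted p = 0.0209). These markers were singled out after their values were seen, and the part of fibroblasts and mural cells in the Lrp1 change was not tested. Of 10 tested endothelial markers, 2 were called higher and 0 lower, beside 4.81% of all genes called higher. They were Emcn at 0.2 (adjusted p = 0.000705) and Tek at 0.16 (adjusted p = 0.0158). Of 2 tested leukocyte markers, 1 was called higher and 0 lower: Laptm5 at 0.33 (adjusted p = 5.36e-07). Serpinb2, which encodes plasminogen activator inhibitor 2, fell by 0.80 ± 0.18 (SE) from a low level of 6.47 ± 6.42 CPM to 3.71 ± 3.44 CPM (SD, n = 3, adjusted p = 0.00358). It was lower in 2 of 3 pairs, and the call was lost without pair 2 (-0.71, adjusted p = 0.122) and with DESeq2 (-0.79, adjusted p = 0.144). The Serpinb2 pairs were at -1.59, -0.87 and 0.06 on the log2 scale. Mural markers differed among themselves: Cspg4 was at -0.83, -0.66 and 0.06, and Pdgfrb at -0.59, -0.60 and 0.15. Notch3 was at -0.54, -0.43 and -1.07, and Tagln, which was not called, at 0.07, -0.05 and 0.24. The part of mural cells in the Serpinb2 change was not tested.

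In the list of anticoagulants and platelet inhibitors, 1 of 5 tested genes rose and 4 did not pass, where 4.81% of all genes were called higher. Entpd1 encodes the ectonucleotidase that removes platelet-activating ADP. Its values were 56.6, 75.7 and 111 CPM in knockout libraries 1 to 3 against 48.1, 59.8 and 89.4 CPM in wild-type libraries 1 to 3. It was higher in 3 of 3 pairs and rose by 0.30 ± 0.050 (SE) in edgeR's paired test (adjusted p = 2.94e-05). All 8 alternatives called it too, at 0.27 to 0.32. Among the 4 thrombin and protease receptors, F2rl2, a member of the protease-activated receptor family, rose by 0.21 ± 0.069 (SE), with an adjusted p of 0.0425. That call was lost in 6 of 8 alternatives, including without pair 1 (0.26, adjusted p = 0.0624), without pair 2 (0.18, adjusted p = 0.327) and without pair 3 (0.21, adjusted p = 0.0991).

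Of 9 tested genes of Weibel-Palade bodies and von Willebrand factor handling, 0 rose, 1 fell and 8 did not pass, beside 4.81% of all genes called higher and 4.01% called lower. Stx3, a membrane fusion protein reported to act in the release of these granules, went from 41.9 ± 2.99 to 36.3 ± 3.08 CPM (SD, n = 3), a fall of 0.21 on the log2 scale with an adjusted p of 0.0199. It no longer passed without pair 2 (-0.19, adjusted p = 0.215), without pair 3 (-0.20, adjusted p = 0.0631), at the threshold of 0.01 or with DESeq2 (-0.20, adjusted p = 0.345). The list of coagulation factors held 18 genes, including proteins that export such factors or serve their vitamin K-dependent modification. Of these, 5 had enough reads to be tested, and 0 passed: F5, the gene of plasma factor V, and Lman1, Mcfd2, Ggcx and Vkorc1, whose products act inside the cell. Apart from Mcfd2, these names were chosen after their values were seen. F5 was higher in 3 of 3 pairs on 15 to 37 reads per library. Its log2 fold change in edgeR's paired test was 0.77, with an interval from 0.18 to 1.35 and an adjusted p of 0.0974. Mcfd2, a subunit of the cargo receptor that exports factors V and VIII from the endoplasmic reticulum, was level at 136 ± 1.5 and 138 ± 3.51 CPM (SD, n = 3), with a paired interval from -0.11 to 0.06.

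Factors made mainly by the liver were at or near 0: F7, F9, F10, F12, Fga and Fgg had 0 of 118609114 reads, which allows up to 3 reads, or 0.0253 CPM, counting error alone. The other 7 untested genes of that list had 1 to 7 reads.

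**Figure D5:**
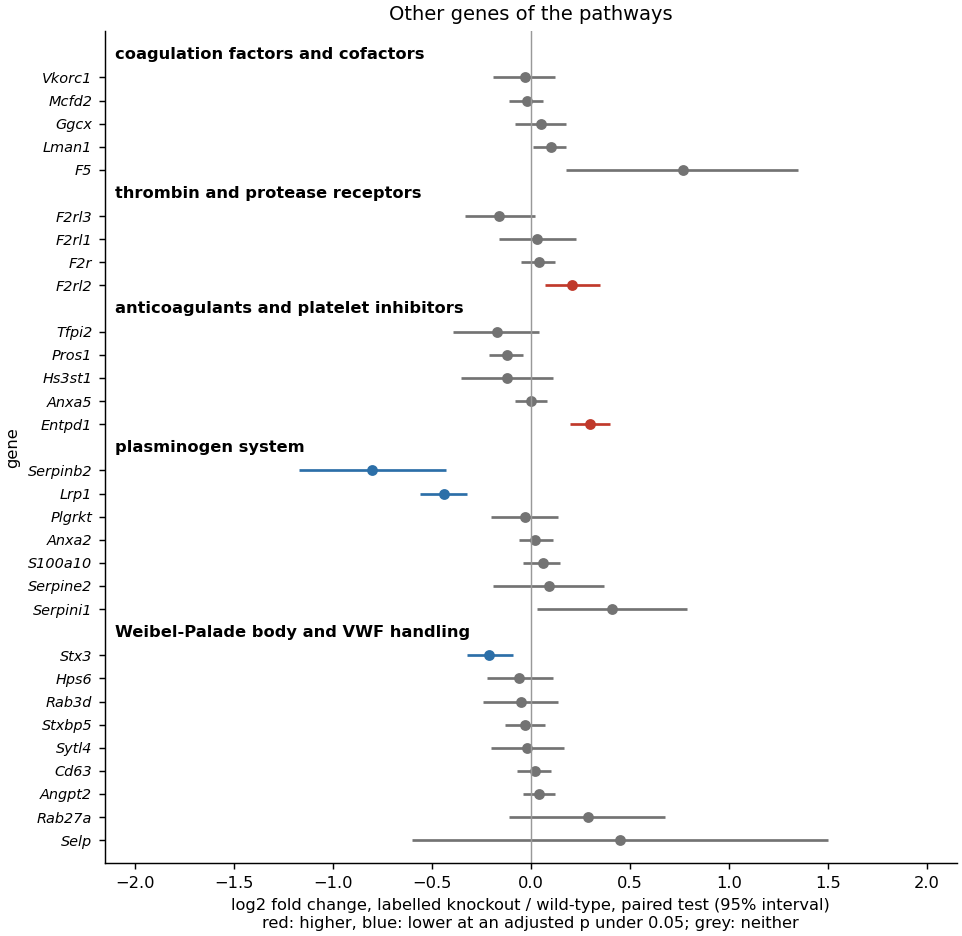
Log2 fold change in the paired test, with its 95% interval, of the 30 tested genes in 5 lists of related genes. Red marks the 2 called higher (F2rl2, Entpd1), blue the 3 called lower (Serpinb2, Lrp1, Stx3) and grey the other 25.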

How the data were processed

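The authors deposited raw read counts per gene symbol for 6 libraries of polyadenylated RNA. Tools listed in the submitters' processing notes are Subread 1.6.4 (and featureCounts), STAR 2.6.1d, FastQC 0.11.8 and Trim Galore 0.6.4, with builds GRCm38 and mm10. Annotation, strand setting and treatment of multi-mapping reads were not given in the sources used here. Libraries were made with a non-stranded or a stranded TruSeq kit per the labels' protocols, which do not tie kits to samples.

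Counts were tested in R 4.3.3 with edgeR 4.0.16: filterByExpr kept 12753 genes, TMM factors were 0.983 to 1.02, and the robust quasi-likelihood F test was adjusted by Benjamini-Hochberg at 0.05. Intervals are 95% from that test. Lengths and positions came from GENCODE M21 (GRCm38), which matched 95.8% of symbols. DESeq2 1.42.0, other scalings, no low-count filter, a threshold of 0.01 and left-out libraries were alternatives.

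Deviations from group means correlated at 0.754, 0.839 and 0.621 between same-numbered libraries, so the numbers were taken as pairs; the pairing comes from the data. Ratios had exact tests. Results for 1 gene of the lists are not reported here. The genes and lists were chosen with earlier results of these data known. The 9 genes were all described. From each list, called genes were named, up to 3 per direction, otherwise the gene with the highest level per length, and the 3 most alike genes were named for Vwf and for the gene with the largest paired change.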

Additional observations from a re-analysis of the deposited data

How the results depend on the processing

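F8 was lower under all 12 alternatives of the group comparison (-1.38 to -0.26) and all 8 of the paired test. With the replicate block, which makes the paired test, the comparison called 1 of the 9 genes lower, 2 list genes higher and 3 lower, and 613 and 511 genes overall; DESeq2 without the block called 11 and 7 genes, and the threshold of 0.01 called 0 lower. Leaving out 1 library gave 0 to 1 genes lower. The paired test over all genes called 264 higher and 111 lower under DESeq2, 388 higher and 259 lower at the threshold of 0.01, and 339 to 603 higher and 205 to 600 lower with 1 pair left out. Of the 9 genes, 2 were lower without the low-count filter and 1 to 3 with 1 pair left out. List genes called higher numbered 1 at the threshold of 0.01, under DESeq2 and under scaling by library size alone, and 1 to 3 with 1 pair left out. Those called lower numbered 1 with DESeq2 and 1 to 4 with 1 pair left out. The cause was not tested.

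The directions that turned were those of other genes, among them genes called in the paired test whose direction turned without the block. With library size alone, Procr was -0.02 without the block and 0.00 (to 2 decimals, just below 0) with it. Leaving out 1 library without the block turned Vwf (-0.71 to 0.81), Thbd (-0.45 to 0.08), Procr (-0.29 to 0.28), Tfpi (-0.05 to 0.13), Plat (-0.28 to 0.07), Plau (-0.04 to 0.18), Plaur (-0.17 to 0.13), F3 (-0.62 to 0.52), F2rl2 (-0.23 to 0.69), Lrp1 (-1.40 to 0.60) and Serpinb2 (-1.88 to 0.41), and the group differences in the log2 ratios of Tfpi to F3 (-0.31 to 0.60) and Thbd to Procr (-0.74 to 0.43). Leaving out a pair turned Vwf (-0.04 to 0.12), Procr (-0.01 to 0.07), Tfpi (-0.03 to 0.09), Plaur (-0.06 to 0.00) and F3 (-0.49 to 0.18). F8 and F3 rest on the fewest reads of the 9 genes.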
